A study of Mus musculus with 143 samples.

Results

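The libraries described here are 5 tumours of the 4T1 line from mice that received an isotype antibody and 3 untreated 4T1 tumours, which is 8 of the 143 libraries of a series on 11 mouse tumour models. They were picked by their titles, and no measured value entered the choice. 4T1 is a mouse mammary carcinoma line, and the labels class it as Resistant to the PD-1 antibody muDX400. In both groups the cells were placed under the skin of the flank by a single injection per mouse, and the labels name no transgene, deletion or added gene in any of these mice. The isotype tumours (isotype control mIgG1) came from mice injected with that control antibody on days 11 and 15 after implantation and were taken on day 19, a time point the labels write as 8d. The baseline tumours had the treatment "none", and the labels give neither the day on which they were taken nor the host strain or age of the mice. Time in the host, the control injections and the block of sample numbers all differ between the groups and cannot be told apart in this comparison, which is called growth below for short. Each library was taken as the tumour of a separate mouse, because the protocol describes a single site per mouse. If that is wrong, the p-values measure only the spread between these samples.

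Transplanted 4T1 tumours are known for secreting granulocyte colony-stimulating factor (the product of Csf3), which drives the bone marrow to release neutrophils and their immature forms. A mass that enlarges under the skin can also meet the fat pad and muscle of the flank, so RNA from whole tissue holds transcripts of cancer cells, infiltrating blood cells, blood vessels and neighbouring host tissue. Adipocytes are recognised by adiponectin and lipid-droplet proteins, neutrophils by granule proteins and the receptors Csf3r and Cxcr2, cytotoxic T cells by CD8 and perforin, and dividing cells by the proteins of mitosis.

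All 8 libraries carried the carcinoma's epithelial markers. The adhesion molecule Epcam lay between 132 and 271 FPKM (mapped fragments scaled for transcript length and library size), and the simple-epithelial keratins Krt8 and Krt18 were at 496 FPKM or more in each library. Estimated depth was 18.6 to 23.4 M fragments per library. Correlations of log2(FPKM + 1) within the isotype group ran from 0.983 to 0.994. Baseline replicate 3 stood apart from the other baseline libraries, at 0.966 and 0.979 against 0.990 between replicates 1 and 2. Genes set aside here (pseudogenes, and genes with 1000 exonic bases or fewer) took 17.7 ± 1.40% of the FPKM total in baseline libraries (SD, n = 3) and 13.3 ± 0.478% in isotype libraries (SD, n = 5), with no overlap (exact permutation p = 0.0357, 2-sided, the smallest that 56 arrangements of 3 and 5 libraries allow). Mitochondrial transcripts took 4.41% to 5.24% of the total at baseline and 3.94% to 4.35% in isotype tumours (exact permutation p = 0.0357).

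Among 12294 genes tested, 1556 (12.7%) passed an adjusted p of 0.05 in limma's moderated test on log2(FPKM + 1). Of these, 528 (4.29%) were higher and 1028 (8.36%) lower in isotype tumours. The scale of the values moved that split. After rescaling the kept genes of each library to the same total, 931 were higher and 611 lower, and after quantile normalisation 790 were higher and 912 lower. The rescaling shifted the median difference of all genes by 0.117 on the log2 scale, so small differences below are to be read against that shift. The count also rests on single libraries. It was 494, 359 and 4532 when baseline replicates 1, 2 and 3 were left out in turn, and 893 and 711 with isotype replicates 3 and 4 left out in turn, while 330 genes (120 higher, 210 lower) passed whichever library was left out. Differences of more than 1 on the log2 scale were seen in 96 of the higher and 118 of the lower genes. Groups did not overlap in 481 of the higher and 961 of the lower genes, where 8.31% and 12.5% of all genes tested had groups that did not overlap in those directions.

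**Figure D1:**
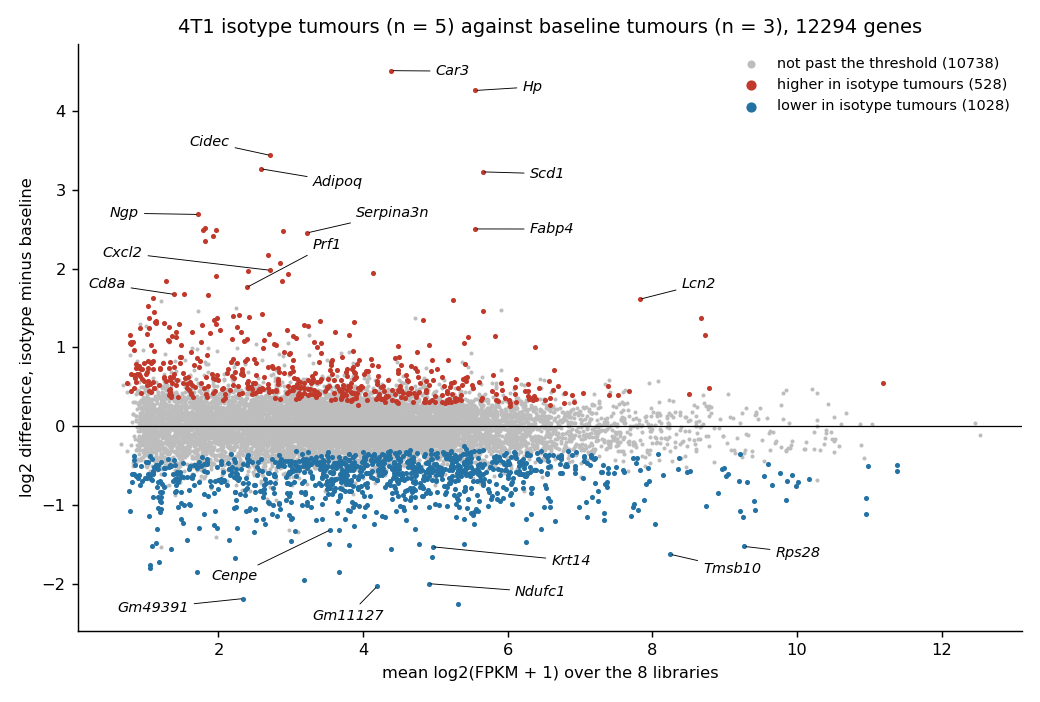
Each point is a gene, with its mean log2(FPKM + 1) over the 8 libraries on the horizontal axis and the log2 difference, isotype minus baseline, on the vertical axis. Red points (528) and blue points (1028) passed an adjusted p of 0.05, and the largest rises are genes of fat and acute phase proteins, with Car3 at 4.51 and Hp at 4.26.

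The rises were led by genes of fat cells, acute phase proteins and neutrophil granules, and the falls that formed a named group were in mitosis, DNA synthesis and keratins. Promoter sequences of a pair of genes from each end, the fat genes Adipoq and Cidec and the mitosis genes Cenpf and Mki67, show what the deposited levels can be read against. Each is the window of 250 bases before the transcription start in RefSeq on build GRCm38.p6, written 5′ to 3′ on the gene's own strand: Adipoq at chr16:23146286-23146535 (plus strand), Cidec at chr6:113435761-113436010 (minus strand), Cenpf at chr1:189688087-189688336 (minus strand) and Mki67 at chr7:135716380-135716629 (minus strand). Capitals mark matches on either strand to CCAAT, the box bound by NF-Y (ATTGG where it lies on the other strand), and, in the mitosis genes, to TTTGAA, the core of the cell cycle homology region. The C/EBP letters TTNNGCAA and the PPAR direct repeat were searched in the fat genes and the E2F letters TTTGGCGC in the mitosis genes, and none of these is in the windows shown.
Adipoq: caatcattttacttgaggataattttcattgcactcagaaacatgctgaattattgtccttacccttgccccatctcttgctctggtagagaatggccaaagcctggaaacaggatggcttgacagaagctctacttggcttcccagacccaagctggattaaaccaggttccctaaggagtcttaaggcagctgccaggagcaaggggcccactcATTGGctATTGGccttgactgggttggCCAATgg
Cidec: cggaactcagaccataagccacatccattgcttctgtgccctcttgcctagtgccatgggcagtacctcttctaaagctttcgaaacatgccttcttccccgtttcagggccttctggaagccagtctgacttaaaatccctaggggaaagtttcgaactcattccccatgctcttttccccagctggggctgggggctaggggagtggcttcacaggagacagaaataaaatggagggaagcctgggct
Cenpf: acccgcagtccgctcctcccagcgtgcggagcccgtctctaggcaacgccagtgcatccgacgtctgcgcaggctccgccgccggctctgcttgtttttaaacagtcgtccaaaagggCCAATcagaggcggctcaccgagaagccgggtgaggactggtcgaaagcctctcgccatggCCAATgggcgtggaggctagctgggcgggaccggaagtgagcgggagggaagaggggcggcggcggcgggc
Mki67: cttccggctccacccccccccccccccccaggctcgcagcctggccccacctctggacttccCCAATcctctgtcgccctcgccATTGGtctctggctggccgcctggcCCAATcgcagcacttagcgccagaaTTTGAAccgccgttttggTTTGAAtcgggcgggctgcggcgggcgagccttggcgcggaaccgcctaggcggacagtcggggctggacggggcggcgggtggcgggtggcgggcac
The Adipoq window holds 3 CCAAT boxes, that of Cenpf 2, and that of Mki67 3 with 2 TTTGAA matches, while neither motif is in the Cidec window. No matches overlap in these windows. CCAAT occurs in 34.53% and TTTGAA in 16.3% of all 27025 windows of this length, in 14 and 7 of the 15 windows found for the mitosis genes listed below, and in 2 and 0 of the 9 found for the adipocyte genes. The shares of all windows with the C/EBP letters, the PPAR repeat and the E2F letters are 9.55%, 0.3367% and 0.4366%. A match describes letters in a window and is no evidence of binding.

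Adipocyte genes rose furthest. Of 12 listed members, 9 passed the filter on low values and 9 of these were higher, against 4.29% of all genes tested. The median difference was 2.48 on the log2 scale against -0.02 over all genes tested. Plin1, Plin4, Retn and Pparg reached 1 FPKM in no baseline library and Adipoq and Cidec in 1, so these 6 passed the filter only through the group in which they are high, and the count is a description that carries no weight of its own. Adiponectin (Adipoq), the hormone made by fat cells, stood at 0.147, 0.245 and 1.21 FPKM in baseline replicates 1 to 3 and at 11.1, 9.01, 17.1, 14.0 and 15.7 FPKM in isotype replicates 1 to 5. Each isotype tumour was above each baseline tumour, and baseline replicate 3 was the highest of its group. The difference was 3.26 ± 0.24 (log2, SE, adjusted p = 8.3e-05), a mean level 25.1 times that of baseline. Cidec, which fuses lipid droplets, stood at 0.181, 0.341 and 1.07 FPKM against 15.1, 9.43, 17.4, 17.8 and 17.2 FPKM, a difference of 3.43 ± 0.23 (adjusted p = 3.4e-05). Again the groups did not overlap and baseline replicate 3 was the highest of the untreated tumours.

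The remaining members followed the same order of groups. Plin1 coats the lipid droplet and rose from 0.0703, 0.112 and 0.369 FPKM to between 4.67 and 6.75 FPKM (2.48 ± 0.13, adjusted p = 2.4e-05). Fabp4, the fatty acid carrier of adipocytes and some macrophages, was at 9.58, 17.3 and 19.5 FPKM and then at 48.8, 81.3, 123, 105 and 107 FPKM, with a difference of 2.5 ± 0.29. Lpl, which releases fatty acids from lipoproteins, rose by 2.48, Plin4 by 2.41 and the adipokine Retn by 2.35. Smaller rises were seen for the regulator Pparg (0.83) and the lipase Lipe (0.82), both adjusted below the threshold. Cfd (adipsin) has few exonic bases and was set aside. Its listed levels were 1.31, 2.40 and 9.86 FPKM at baseline and 66.8 to 152 FPKM in isotype tumours. Lep and Cidea stayed under the filter in both groups. Summed over the 9 members, the level was 19.8, 27.4 and 32.7 FPKM in baseline tumours and 110, 137, 213, 190 and 191 FPKM in isotype tumours. Leaving out any single library kept 8 or 9 of the 9 calls. More fat cells in the excised tissue and more of this RNA per cell cannot be told apart in bulk samples.

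Outside the list, 4 of the 12 largest rises are genes with known roles in fat metabolism, named because they rose. Car3, a carbonic anhydrase abundant in adipocytes and slow muscle, had the largest rise of the protein-coding genes whose groups did not overlap. It went from 1.00, 0.974 and 5.68 FPKM to 49.2, 52.8, 86.5, 76.1 and 76.7 FPKM (4.51 ± 0.37, adjusted p = 1.1e-04). Scd1, the desaturase that makes monounsaturated fatty acids, stood at 9.12, 9.68 and 16.9 FPKM and at 98.6, 111, 153, 120 and 102 FPKM, a rise of 3.22 ± 0.19. For both genes the lowest isotype tumour was several times the highest baseline tumour. Pck1 (2.51) and Gpd1 (2.49), enzymes that supply glycerol phosphate for triglyceride, were also among the 12 largest rises. In the list of sterol and fatty acid synthesis, written like all lists here with earlier results of these data known, 1 gene rose and 1 fell. Among all genes tested 4.29% were higher and 8.36% lower. Of its 18 tested members, Scd1 was the 1 that rose and Idi1, an isoprenoid enzyme, the 1 that fell (-0.62), and Fasn, which makes palmitate, differed by -0.37 (adjusted p = 0.08), Acaca by 0.50 and Acly by 0.34. Markers of muscle, the other tissue of the flank, differed in sign. Of 10 tested, 7 lay above 0 and 3 below, with a median of 0.70. The 1 that passed was the troponin Tnni2, where 8.36% of all genes tested were lower. Tnni2 fell from 82.3, 72.6 and 59.6 FPKM to between 28.1 and 39.9 FPKM, without overlap (-1.09, adjusted p = 9.7e-04). Tnnt3 (-0.62) and Mb (-0.21) also lay below 0. Creatine kinase Ckm was at 2.41, 0.336 and 0.153 FPKM at baseline and at 0.102, 0.123, 3.97, 28.5 and 13.2 FPKM in isotype tumours (1.47 ± 1.00, adjusted p = 0.33). Ckm was therefore high in isotype replicates 3 to 5 and near 0 in replicates 1 and 2, where Adipoq was at 11.1 and 9.01 FPKM. Within the isotype group Acta1, Myh4, Actn3, Atp2a1 and Pygm were likewise highest in replicate 4 and next in replicate 5. Skin markers were scarce: 14 of 16 keratinocyte genes were under the filter.

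**Figure D2:**
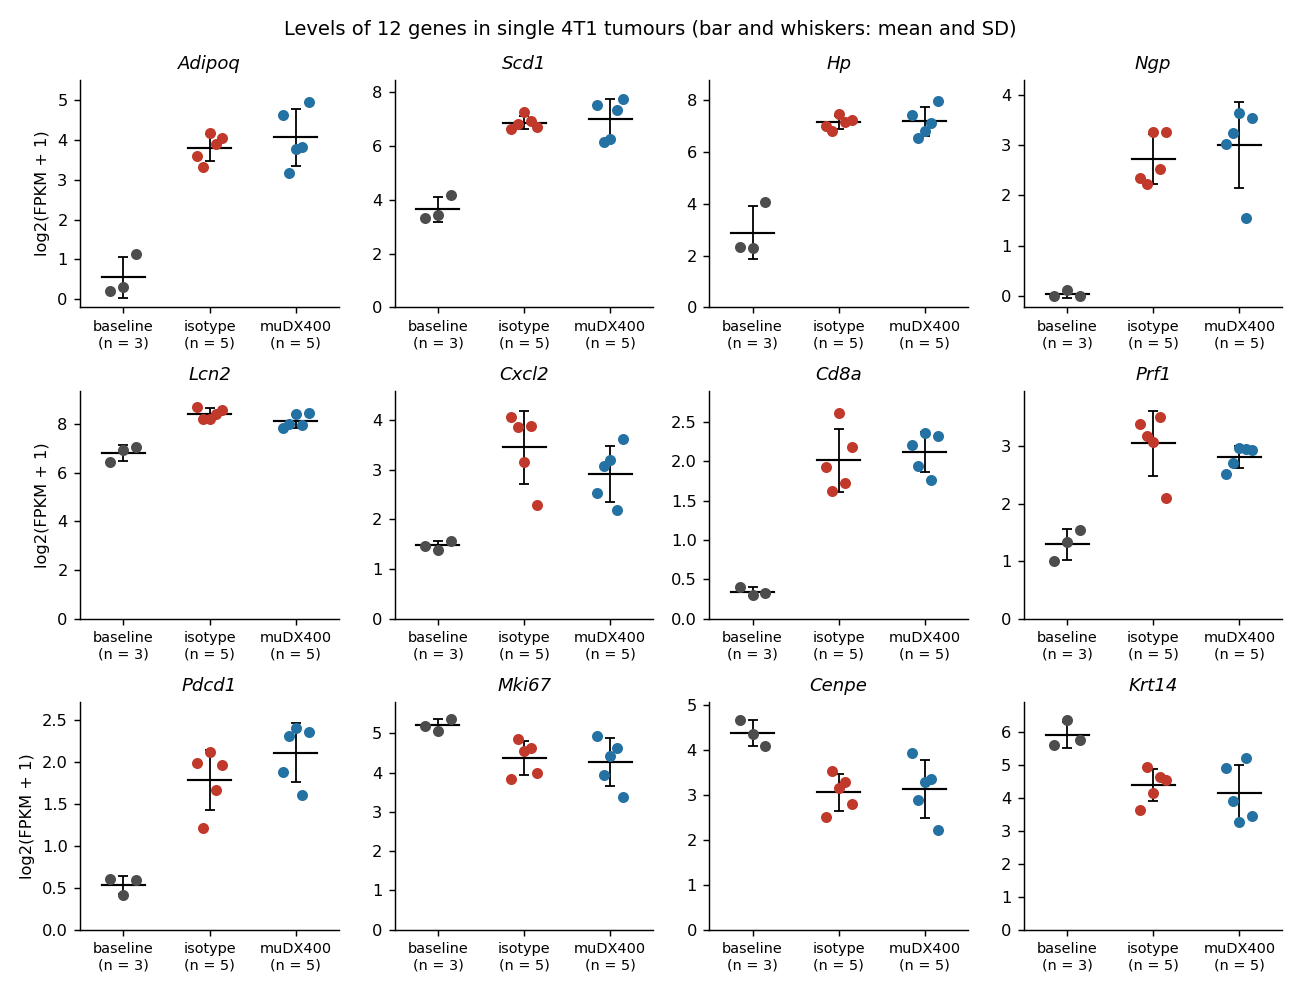
Levels of 12 genes in single 4T1 tumours as log2(FPKM + 1), for 3 baseline, 5 isotype and 5 muDX400 libraries, with bars at the mean and whiskers of 1 SD. Adipoq, Scd1, Hp, Ngp, Cd8a and Prf1 show isotype points above each baseline point, and Cenpe and Krt14 show them below.

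Acute phase proteins, which liver and inflamed tissue secrete, included the next largest rise. Haptoglobin (Hp), which binds free haemoglobin and is also made by fat and neutrophils, went from 3.98, 3.92 and 15.7 FPKM to 128, 113, 176, 144 and 152 FPKM (4.26 ± 0.35, adjusted p = 1.1e-04). Isotype tumours were all above baseline tumours, and baseline replicate 3 was again the highest of its group. In the list of complement and acute phase genes, 5 of the 11 tested members rose, where 4.29% of all genes tested were higher. The 5 were Hp, the iron-binding Lcn2, the serum amyloid Saa3 (1.35), the C1 inhibitor Serping1 (1.13) and the complement component C4b (1.02). Saa3 ranged from 11.2 to 19.2 FPKM at baseline and from 21.3 to 75.9 FPKM in isotype tumours. The central complement component C3 had 16.4, 40.5 and 76.4 FPKM in baseline tumours and 48.1 to 69.3 FPKM in isotype tumours, which overlap (0.63, adjusted p = 0.25). The protease inhibitor Serpina3n, also an acute phase protein, rose by 2.45 ± 0.35. The list's count was 3 without baseline replicate 1 or replicate 2 and 7 of 11 without baseline replicate 3. Its summed level was 249 to 327 FPKM at baseline and 643 to 849 FPKM in isotype tumours.

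Several neutrophil genes rose, while the difference of their growth factor Csf3 did not pass the test. Of 22 listed members, 15 were tested and 9 were higher with 0 lower, at a median difference of 0.85. Rises made up 4.29% of all genes tested. Padi4 (0.41), Mxd1 (0.34), Acod1 (0.79), Fpr1 (0.25), Slfn4 (0.17) and Mmp9 did not pass. The receptor for granulocyte colony-stimulating factor, Csf3r, stood at 4.63, 4.84 and 6.43 FPKM and at 13.7, 11.8, 13.0, 12.9 and 9.78 FPKM, a rise of 1.07 ± 0.13 (adjusted p = 0.0012) with no overlap. Its ligand Csf3 was at 35.9, 36.5 and 28.7 FPKM and at 52.9, 41.1, 43.5, 75.3 and 22.7 FPKM (0.38 ± 0.29, adjusted p = 0.38). For Csf3 the isotype tumours lay on both sides of the baseline tumours, with replicate 5 the lowest of the 8. Cxcr2, the receptor that guides neutrophils along chemokines, was at 0.784, 1.33 and 0.796 FPKM and at 2.61, 2.44, 2.71, 3.39 and 1.29 FPKM (0.80 ± 0.20, adjusted p = 0.026), and isotype replicate 5 fell within the baseline range. The call for Cxcr2 held in 3 of the 8 fits that left a library out.

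Other neutrophil members that rose were the histamine-forming enzyme Hdc (1.40), the lectins Clec4d (1.39) and Clec4e (1.28), the collagenase Mmp8 (1.25), the cytokine Il1b (1.05), the formyl peptide receptor Fpr2 (1.04) and the receptor Trem1 (0.85). Il1b was at 23.2, 29.5 and 24.8 FPKM and then at 65.4, 61.9, 51.8, 70.4 and 32.3 FPKM. The gelatinase Mmp9, made by neutrophils and macrophages, stood at 41.9, 169 and 149 FPKM and at 50.8, 77.7, 96.3, 76.2 and 135 FPKM (-0.30 ± 0.42, adjusted p = 0.65). Baseline replicate 1 was low for Mmp9 and the other untreated tumours were high, so the groups overlapped across their range. Genes of the granules that neutrophils fill while still immature reached further. Ngp was listed at 0, 0.0863 and 0 FPKM at baseline and at 4.07, 3.71, 8.57, 4.73 and 8.64 FPKM in isotype tumours (2.69 ± 0.24, adjusted p = 2.6e-04). Lcn2, also an acute phase gene, rose from 86.4, 123 and 132 FPKM to 421, 296, 299, 340 and 381 FPKM (1.61 ± 0.16) and lactoferrin (Ltf) by 1.45. For Ngp and Lcn2 the groups did not overlap. Prtn3, a serine protease of the earliest granules, differed by 0.92 (adjusted p = 0.064), and Mpo, Elane and Ctsg were below 1 FPKM in each of the 8 libraries. Ngp, Ltf, Prtn3 and Mmp8 were under 1 FPKM in all baseline tumours, and Cxcr2 and Clec4e in all but 1, so they entered the test through isotype tumours.

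Short genes of the same cells were set aside, and their values are given as listed. S100a8, a chain of the calprotectin complex of neutrophils, was at 6.44, 11.4 and 9.21 FPKM at baseline and 46.5 to 109 FPKM in isotype tumours. Its partner S100a9 was at 18, 29 and 21.1 FPKM and then at 79.7 to 207 FPKM. Among chemokines and colony-stimulating factors, 3 of 8 tested members rose, against 4.29% of all genes tested. Cxcl2, a ligand of Cxcr2, was at 1.77, 1.61 and 1.97 FPKM and at 15.8, 13.5, 7.92, 13.8 and 3.91 FPKM (1.98 ± 0.34, adjusted p = 0.0063). Cxcl3 rose by 1.91 and Cxcl5 by 1.27, the latter with calls in 2 of the 8 fits that left a library out. Cxcl3 was at 0.146, 1.41 and 0.791 FPKM at baseline, so it entered the test through isotype tumours. Cxcl1 differed by 0.50 (adjusted p = 0.23). Isotype replicate 5 was the lowest of its group for Cxcl2, Cxcl3, Cxcl5, Il1b, Hdc, Clec4d, Clec4e, Csf3r, Cxcr2 and the nitric oxide synthase Nos2. Without it 11 of the 15 tested neutrophil genes passed, and across the fits that left out each library in turn the count ran from 7 to 11. For Ngp the same tumour was the highest of the 8.

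**Figure D3:**
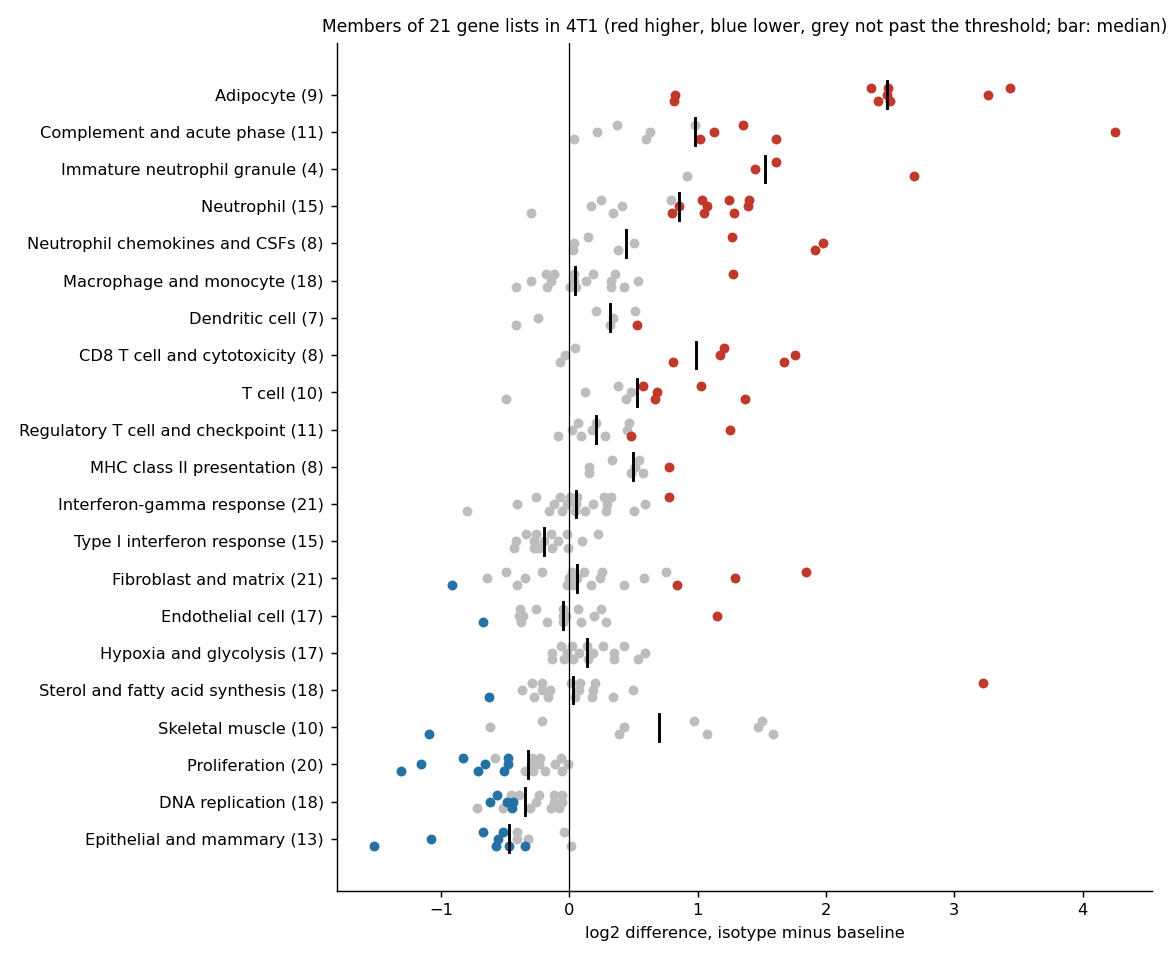
Each point is a tested member of the list named at the left (number of members in brackets), placed at its log2 difference, isotype minus baseline, and black bars are medians. The adipocyte median lies at 2.48, CD8 and cytotoxic genes at 0.99 and neutrophil genes at 0.85, while mitosis (-0.32), DNA replication (-0.35) and epithelial genes (-0.47) lie below 0.

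Several cytotoxic T-cell genes were higher in isotype tumours, most from very low baseline levels. In the CD8 and cytotoxicity list, 8 of 13 members were tested, 5 rose and 0 fell, with a median of 0.99. The share of all genes tested that rose was 4.29%. Cd8a, the coreceptor chain that defines these cells, was at 0.321, 0.230 and 0.257 FPKM and at 2.80, 2.08, 5.14, 2.31 and 3.56 FPKM, a rise of 1.67 ± 0.20 (adjusted p = 0.0011). Perforin (Prf1), the pore-forming protein of killer cells, was at 1.01, 1.51 and 1.91 FPKM and at 9.51, 8.08, 7.43, 10.4 and 3.28 FPKM (1.76 ± 0.28, adjusted p = 0.0043). Each isotype tumour was above each baseline tumour for both genes, with replicate 3 the highest for Cd8a and replicate 5 the lowest for Prf1. Granzyme B (Gzmb) rose by 1.2 from 5.80 to 7.13 FPKM at baseline, Cd8b1 by 1.17 and the homing receptor Cxcr6 by 0.81. Granzyme A (Gzma) did not pass, with 6.27, 3.36 and 1.83 FPKM at baseline and 2.66 to 4.12 FPKM later. Neither did Eomes (0.05), at 1.45 to 2.15 FPKM at baseline, and Cxcr3 (-0.07), at 4.48 to 8.11 FPKM. Cd8a, Cd8b1 and Cxcr6 were under 1 FPKM in all baseline tumours. Leaving out single libraries kept 4 or 5 of the 5 calls.

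The general T-cell list had 5 of 10 tested members higher, against 4.29% of all genes tested. That count also follows in part from the filter. Cd3e, Cd3d, Zap70 and Icos were under 1 FPKM in each baseline tumour and Cd4 in all but 1, so they were tested only because of their isotype levels, and the same holds for Pdcd1 below. Cd3g rose by 1.37 ± 0.20, Cd3e by 1.03 ± 0.23, the kinase Lck by 0.68, Cd3d by 0.67 and Cd4 by 0.57. Cd247 (0.12) and Zap70 (0.44), which complete the receptor's signalling unit, did not pass, and neither did Icos (0.48), Cd2 (0.38) and Thy1 (-0.49). Thy1, also a fibroblast gene, was the most abundant tested member, at 63.8 to 100 FPKM at baseline and 47.6 to 68.4 FPKM in isotype tumours. Summed over the 10 tested members, the level was 92.6, 111 and 72.6 FPKM at baseline and 66.7 to 99.0 FPKM in isotype tumours. The count of 5 fell to 1 without baseline replicate 2. It fell to 2 when baseline replicate 1 or isotype replicate 1, 3, 4 or 5 was left out. Calls for Cd3g held in all 8 such fits. The inhibitory receptor Pdcd1 (PD-1) was at 0.516, 0.328 and 0.514 FPKM and at 2.97, 1.33, 3.34, 2.17 and 2.90 FPKM, with no overlap and a rise of 1.25 ± 0.19 (adjusted p = 0.0033). Its ligand Cd274 (PD-L1) was at 20.6, 13.4 and 7.07 FPKM and at 12.3, 17.7, 16.8, 17.7 and 9.37 FPKM (0.18 ± 0.29, adjusted p = 0.70). Isotype values for Cd274 all fell inside the baseline range. Among the 11 tested regulatory and checkpoint genes, Pdcd1 and the ectonucleotidase Entpd1 (0.48) rose, and Ctla4 (0.45), Lag3 (0.09) and Havcr2 (0.07) did not pass. Il2rb, a cytokine receptor chain of T and NK cells, rose by 1.10, and the NK receptor Ncr1 differed by 0.28.

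Counts in the interferon lists were small in the same tumours. Among all genes tested 4.29% were higher and 8.36% lower, so small counts in short lists say little. Of 21 tested interferon-gamma response genes 1 passed, Ciita, and of 15 type I interferon genes 0 passed, with 13 of 15 differences below 0 and a median of -0.20. The set-aside type I genes Isg15, a ubiquitin-like protein, and Mx2, an antiviral GTPase, were lower without overlap and passed when kept in the fit (-0.70, adjusted p = 0.034, and -0.73, adjusted p = 0.024). Isg15 was at 171.8, 105.1 and 85.9 FPKM at baseline and at 64.7 to 83.8 FPKM in isotype tumours. Baseline tumours differed widely from each other in the interferon-gamma genes. The chemokine Cxcl9 was at 62.2, 27.4 and 5.81 FPKM in baseline replicates 1 to 3 and at 24.0 to 50.9 FPKM in isotype tumours. Summed over the interferon-gamma list, the level was 2277, 1326 and 732 FPKM at baseline and 1171 to 1733 FPKM in isotype tumours. The median difference of that list was 0.05, and it was 0.46 without baseline replicate 1 and -0.35 without baseline replicate 3. Globin transcripts ran in the same order, with Hbb-bs (set aside for its length) at 722, 222 and 13.1 FPKM at baseline and 121 to 156 FPKM in isotype tumours. Their part in the interferon values was not tested. Ciita, the master regulator of MHC class II, rose by 0.78 ± 0.20 from 11.4, 7.03 and 4.96 FPKM to between 11.9 and 16.8 FPKM. The 8 class II genes tested had differences above 0 with a median of 0.50, and Ciita was the 1 that passed. MHC class I genes had 0 of 11 past the threshold.

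Macrophage markers gave 1 rise in 18 tested genes, Nos2 (1.27 ± 0.30, adjusted p = 0.024), a share near the 4.29% of all genes. Cd68 was at 48.1, 47.7 and 38.6 FPKM and at 63.2, 43.1, 67.9, 51.7 and 57.6 FPKM (0.32 ± 0.14, adjusted p = 0.14). It passed after rescaling (0.45), and also once trends with GC content and length were taken out (0.51). The complement subunit C1qa (-0.12) and the mannose receptor Mrc1 (-0.30) did not pass. The macrophage elastase Mmp12 rose by 1.61 from 8.04, 34.5 and 20 FPKM to between 32.3 and 76.9 FPKM, with a small overlap. Dendritic cell genes had 1 of 7 higher, the lectin Cd209a (0.52), where 4.29% of all genes tested were higher. Cd209a was at 0.416 to 0.784 FPKM at baseline, so it entered the test only through isotype tumours (1.01 to 1.66 FPKM). In the mast cell list 2 of 7 tested genes passed, the tryptase Tpsb2 (0.75) and Hdc, which is shared with neutrophils. B-cell genes were at the floor: 9 of 12 were under the filter, and Xbp1 (0.46), which is not specific to plasma cells, was the 1 of 2 tested that passed.

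Connective tissue genes split. The collagen genes Col1a1 (335, 472 and 437 FPKM against 309 to 516 FPKM, adjusted p = 0.92) and Col3a1 (0.26, adjusted p = 0.31) did not pass. Dpt and Pi16, markers of fibroblasts in the adventitia and loose connective tissue, rose by 1.84 ± 0.23 and 1.29 ± 0.30. Dpt was at 1.73, 3.55 and 1.89 FPKM and at 6.99, 9.36, 14.7, 11.6 and 13.1 FPKM, with no overlap. The growth factor receptor Pdgfra rose by 0.84, and the collagen chain Col6a3 fell from 76.6, 97.0 and 69.4 FPKM to 32.4, 46.9, 45.4, 42.8 and 44.4 FPKM (-0.92 ± 0.14). Of 21 tested fibroblast and matrix genes these made 3 higher and 1 lower. Over all genes tested 4.29% were higher and 8.36% lower, so single calls here and in the endothelial and TGF-beta lists say little. Smooth muscle actin Acta2 was at 52.9, 95.8 and 66.3 FPKM and at 43.6 to 71.8 FPKM (-0.16, adjusted p = 0.61), and 0 of 11 myofibroblast and pericyte genes passed. Among 17 endothelial genes the lymphatic marker Lyve1 rose (1.15) and Egfl7 fell (-0.67), while Pecam1, present on vessels of every kind, differed by 0.07 (adjusted p = 0.82). The other lymphatic genes listed did not follow Lyve1: Flt4 differed by -0.05 (adjusted p = 0.88) and Prox1 was under the filter. Lyve1 was at 0.31, 1.15 and 0.35 FPKM at baseline and at 2.02 to 4.15 FPKM in isotype tumours, through which it entered the test. The TGF-beta receptor Tgfbr2 rose by 0.84 ± 0.18, alone in its list of 13 tested genes. Hypoxia and glycolysis genes had 0 of 17 past the threshold, with Slc2a1, the glucose transporter, at 0.35 (adjusted p = 0.24) and Vegfa at -0.13 (adjusted p = 0.71).

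Genes of cell division were lower in isotype tumours. Of 20 mitosis and proliferation genes, 20 were tested, 8 fell, 0 rose and 0 had a difference above 0, with a median of -0.32. Falls made up 8.36% of all genes tested. Under rescaling 7 of 20 fell, with a median of -0.20 against the shift of all genes given above. The kinesin Cenpe, which carries chromosomes to the spindle equator, was at 24.2, 19.6 and 15.9 FPKM and at 4.73, 10.6, 7.94, 8.78 and 5.90 FPKM, a fall of 1.31 ± 0.22 on the log2 scale (adjusted p = 0.0055). Cenpf, a kinetochore protein, fell by 1.16 ± 0.21. Isotype tumours were below baseline tumours for both, and replicate 1 was the lowest. Mki67, the standard marker of dividing cells, was at 35.3, 32.2 and 40.3 FPKM and at 13.3, 28.1, 22.2, 23.7 and 14.8 FPKM (-0.83 ± 0.22, adjusted p = 0.033), also without overlap. Birc5 (-0.71), Top2a (-0.66), Ccna2 (-0.51), Ccnb2 (-0.48) and Cdk1 (-0.48) fell too, whereas Ccnb1 (-0.06), Plk1 (-0.19) and Foxm1 (-0.05) did not pass. The windows printed above for Cenpf and Mki67 belong to genes that fell. That of Cenpe, which fell further, is not printed and holds 1 CCAAT box and 0 TTTGAA matches. Of the 7 windows found for proliferation genes that fell, CCAAT is in 6 and TTTGAA in 4, against 14 and 7 of the 15 windows of the whole list.

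DNA synthesis genes had the same sign and a similar median. Of 18 tested, 5 fell and 0 rose, with a median of -0.35, where 8.36% of all genes tested were lower. The 5 were the nucleotide enzymes Tyms (-0.62), Rrm1 (-0.56) and Rrm2 (-0.44), the sliding clamp Pcna (-0.48) and the S-phase regulator E2f1 (-0.45). Pcna was at 216, 183 and 132 FPKM and at 116 to 134 FPKM, and E2f1 at 25.4, 19.6 and 16.9 FPKM and at 13.8 to 15.3 FPKM. The helicase subunits Mcm2 to Mcm7 differed by -0.45 to -0.06 and did not pass. Rescaling left 2 of 18 lower, and quantile normalisation 3. These calls depend on single baseline tumours more than those of fat or neutrophil genes. Without baseline replicate 1 the proliferation list had 3 lower genes and the DNA replication list 0, without replicate 2 they had 1 and 0, and without replicate 3 they had 14 and 10. The summed level of the proliferation genes was 1138, 1004 and 847 FPKM in baseline tumours and 674, 793, 758, 702 and 682 FPKM in isotype tumours. Each isotype sum was below each baseline sum.

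**Figure D4:**
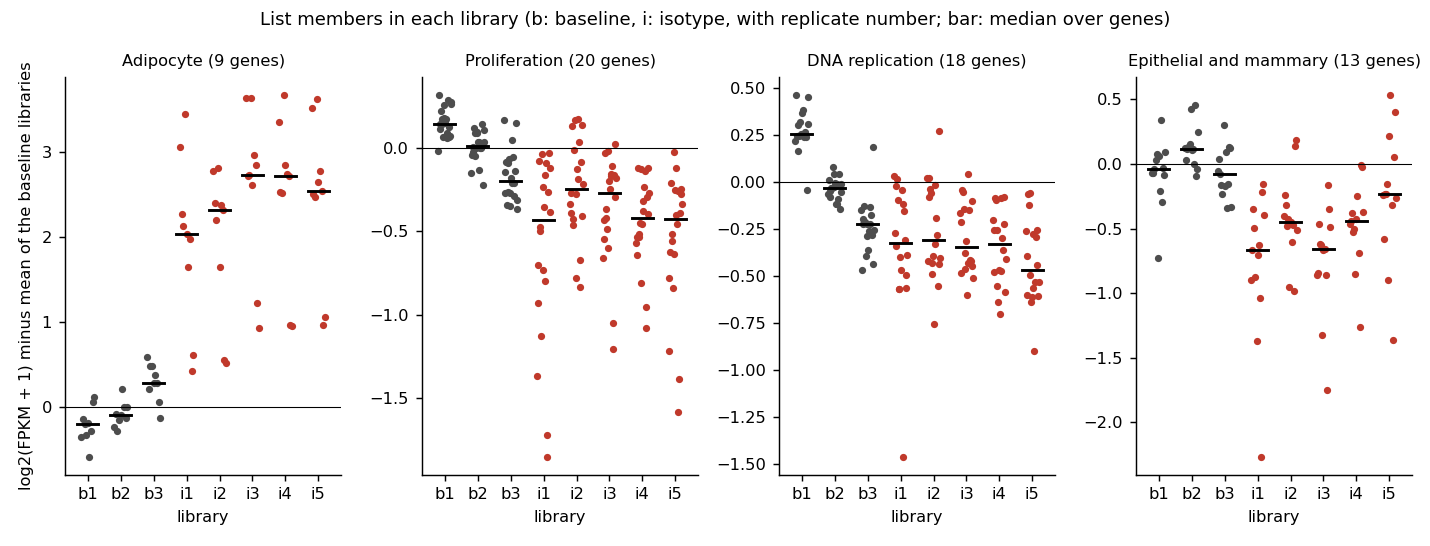
Each point is a gene of the list in a library (b1 to b3 baseline, i1 to i5 isotype), as log2(FPKM + 1) minus that gene's mean over the baseline libraries, with a bar at the median over genes. Baseline replicate 3 lies below replicate 1 for proliferation and DNA replication genes and above it for adipocyte genes, in each case on the side of the isotype libraries.

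Keratins and other epithelial genes fell as well. Of 13 tested epithelial and mammary genes, 8 fell and 0 rose, with a median of -0.47, where 8.36% of all genes tested were lower. Krt14, the keratin of basal and myoepithelial cells, was at 48.1, 81.6 and 53.2 FPKM and at 11.5, 29.5, 16.9, 24.1 and 22.5 FPKM (-1.53 ± 0.27, adjusted p = 0.0065). Its usual partner Krt5 stayed below 1 FPKM in all 8 libraries. Krt19 fell by 1.08 ± 0.24 and Cldn7 by 0.67. Epcam was at 236, 271 and 239 FPKM and at 132, 188, 136, 180 and 210 FPKM (-0.57 ± 0.15, adjusted p = 0.037), with no overlap. Cdh1 (-0.56), Krt7 (-0.52), Krt18 (-0.47) and Krt8 (-0.35) fell, and Grhl2 (-0.04) and Esrp1 (0.01), regulators of the epithelial state, did not pass. Under rescaling 3 of 13 were lower and under quantile normalisation 4. With baseline replicates 1 and 2 left out in turn the count was 2 and 1, with isotype replicate 1, 3 or 4 left out it was 3, and leaving out isotype replicate 5 gave 10. Of 11 tested genes of the mesenchymal state, Twist2 fell (-0.98) and 0 rose, a count near the share of all genes. The shares of cancer cells and of other cells in each tumour were not measured, and their part in these falls was not tested.

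The largest single falls were a mixed set, and several of them were also lower in other models. By the rule for naming genes, the 12 largest falls included Gm49391 (-2.18), Gm11127 (-2.02), Ndufc1 (-1.99), Zfp934 (-1.85), H2-Q1 (-1.67), Tmsb10 (-1.62) and Rps28 (-1.52). Ndufc1, a subunit of respiratory complex I, was at 83.8, 76.1 and 54.4 FPKM and at 17.1, 15.3, 17.1, 16.5 and 18.6 FPKM. Tmsb10, an actin-binding peptide, was at 663, 732 and 472 FPKM and at 161 to 235 FPKM. Ndufc1, Tmsb10 and Rps28 passed the length limit by their merged exons, but their principal transcripts have 1000 bases or fewer. Gm11127 and H2-Q1 belong to the family of MHC class I genes, whose fragments can be divided between near-identical copies, so their levels are uncertain. Ndufc1 fell by 1.85 in CT26, 1.68 in MBT2, 1.72 in MB49, 1.67 in EMT6 and 1.74 in RENCA tumours, each past the threshold of its own fit. Tmsb10 passed as lower in the same 5 models, Gm11127 in CT26, MBT2, EMT6 and RENCA, Rps28 in CT26, MBT2, MB49 and EMT6, and Gm49391 in CT26, MBT2 and EMT6. None of these passed in CM3 or B16F10. H2-Q1 fell by 2.2 in CT26, 2.03 in MBT2, 1.87 in EMT6 and 1.61 in RENCA. Zfp934, a zinc-finger gene, was at 29.1, 27.9 and 24.5 FPKM and at 5.23 to 7.64 FPKM. It fell by 1.84 in EMT6 and by 0.87 in CT26, and passed in none of MBT2, MB49, CM3, RENCA and B16F10. Lars2, chosen after its values were seen, is the lowest point of the plot of differences against level, at -2.25. It was at 223 and 237 FPKM in baseline replicates 1 and 2 but at 20.9 FPKM in replicate 3, within the isotype range.

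Gene length moved with the comparison. Among genes whose shortest principal transcript has 500 bases or fewer, 1 of 64 was higher and 40 lower, with a median difference of -0.62. From 500 to 1000 bases the counts were 20 and 141 of 634 (median -0.26), and above 4000 bases they were 160 and 153 of 3334 (median 0.11). With trends of level with GC content and length taken out of each library, 928 genes were higher and 1198 lower. The lean of short genes remained, with 2 higher and 36 lower up to 500 bases (median -0.48) and 40 and 130 from 500 to 1000 bases (median -0.13). The lead genes kept their calls there, including Adipoq, Hp, Ngp, Cd8a, Cenpe and Krt14. The part of library preparation in the falls of short genes was not tested.

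To set 4T1 against models whose baseline and isotype libraries stand in the same pair of sample-number blocks, the difference in 4T1 was compared with the mean difference of CT26, MBT2, MB49 and CM3 in a fit of 40 libraries. A difference between blocks that is the same in all models cancels in this contrast. It passed for 207 of 14069 genes (1.47%), of which 106 (0.753%) moved further up and 101 (0.718%) further down in 4T1. Scd1 moved 3.13 further up (adjusted p = 6.0e-06), Ngp 2.73 (adjusted p = 1.9e-12), Hp 3.76 (adjusted p = 0.0040) and Prf1 2.03 (adjusted p = 0.0037). Ngp was at 0, 0.0863 and 0 FPKM in 4T1 baseline tumours. Of the 4 immature granule genes tested in 4T1, 1 passed the filter in each of CT26, MB49 and CM3 and 2 in MBT2. The fit pools the spread of 40 libraries, and values at the floor hardly vary. The size of the p for Ngp is therefore not to be read as strength. The other 4 models differ widely in their own counts, at 21.9% of genes in CT26 (4.25% higher, 17.6% lower), 21% in MBT2 (10.9% and 10.2%), 0.647% in MB49 (0.0588% and 0.588%) and 0.0577% in CM3 (0.0412% and 0.0165%). In these models Scd1 differed by -0.31, -0.09, -0.17 and 0.95, and 0 of these passed in its own model. Adipocyte genes had 0 of 8 past the threshold in CT26 (median -0.66), 0 of 6 in MBT2 (0.07), 0 of 9 in MB49 (-0.64) and 0 of 9 in CM3 (0.56). In CT26, 7 of 10 T-cell genes and 4 of 8 CD8 and cytotoxic genes were lower. In the contrast itself, 3 of 9 adipocyte, 4 of 15 neutrophil and 2 of 8 CD8 and cytotoxic genes were further up in 4T1. Cidec, Lpl and Plin4 were the adipocyte genes, while Adipoq missed the threshold (3.19, adjusted p = 0.075). None of the 20 proliferation genes and none of the 13 epithelial genes passed, with Cenpe at -0.97 (adjusted p = 0.20). The contrast rests on few libraries: it passed for 59 genes without 4T1 baseline replicate 1, 73 without replicate 2, 474 without replicate 3 and 127 without isotype replicate 1. The calls of Cidec, Lpl and Plin4 were lost without baseline replicate 1.

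Genes that moved further down in 4T1 under the same contrast were led by Fcrls (-1.88), a receptor-like gene of resident macrophages. Fcrls fell from 17.8, 18.9 and 27.1 FPKM to 12.1, 10.5, 6.27, 10.8 and 8.98 FPKM in 4T1, and rose by 1.84 in CT26. Its call in the contrast was lost whenever a 4T1 library was left out. Cd209c, a lectin related to DC-SIGN, was at 140, 54.0 and 32.1 FPKM and at 9.44 to 30.5 FPKM, and 4933427I04Rik at 14.8, 5.31 and 2.85 FPKM and at 0.305 to 1.81 FPKM. Baseline replicate 1 was the highest library for both.

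**Figure D5:**
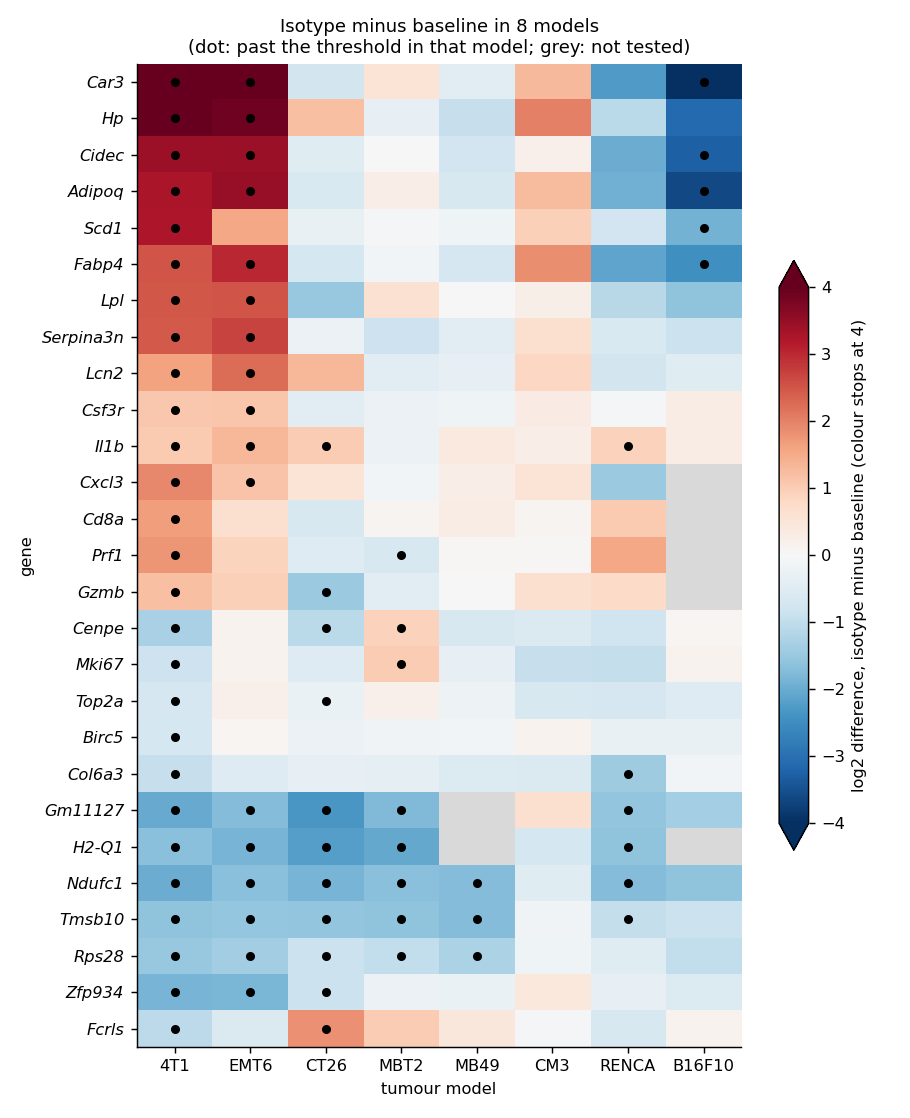
Colour gives the log2 difference, isotype minus baseline, of 27 genes in 8 models, with a dot where it passed in that model and grey where the gene was not tested there. Adipoq, Cidec and Hp passed as higher in 4T1 and EMT6 and in none of CT26, MBT2, MB49 and CM3, and Ndufc1 passed as lower in 4T1, EMT6, CT26, MBT2, MB49 and RENCA.

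EMT6 is the other mammary line of the series, with its baseline libraries in the same block as those of 4T1 and its isotype libraries in a different one. In EMT6, 926 of 12024 genes passed (7.7%), with 274 higher (2.28%) and 652 lower (5.42%). Adipocyte genes had 5 of 9 higher there, with a median of 2.78, and neutrophil genes 7 of 14 higher, with a median of 1.07. The difference between the lines was tested gene by gene in a fit of the 4 groups, and 525 of 12795 genes passed (4.1%), 240 (1.88%) further up and 285 (2.23%) further down in 4T1. For Adipoq the difference between the lines was -0.23 with a 95% interval from -1.89 to 1.43, and for Csf3r it was -0.05, from -0.66 to 0.56. These intervals are wide, and a p above the threshold does not show that the lines behaved alike. Ngp moved 2.37 further up in 4T1 (adjusted p = 0.012) and Tgfbr2 0.99 further up (adjusted p = 0.024). Ngp was at 0, 0.0863 and 0 FPKM in 4T1 baseline tumours. Of the 4 immature granule genes tested in 4T1, 1 passed the filter in EMT6. As in the contrast above, the p for Ngp is not to be read as strength. Of 20 proliferation genes 10 moved further down in 4T1, set against the 2.23% of all genes. Blocks do not cancel in this fit, so line and block of the isotype libraries cannot be told apart. In the contrast with matched blocks above, none of the 20 passed. Cenpe moved 1.44 on the log2 scale further down (difference -1.44, 95% interval -1.95 to -0.92, adjusted p = 0.016). Mki67 differed by -0.98 (adjusted p = 0.046), Top2a by -0.85 (adjusted p = 0.021) and Birc5 by -0.78 (adjusted p = 0.019). In EMT6 itself 2 of the 20 rose, with a median of 0.08.

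RENCA and B16F10 are the models of this set that have baseline and isotype libraries in a single block. In RENCA 986 genes passed (7.99%, with 1.48% higher and 6.51% lower), with 0 of 9 adipocyte genes higher and 1 lower (median -1.59), and 1 of 14 neutrophil genes higher and 1 lower. In B16F10 26 genes passed (0.233%), and 6 of 9 adipocyte genes were among them, lower in isotype tumours (median -2.43). Adipoq differed by -1.91 in RENCA (adjusted p = 0.16) and by -3.61 in B16F10 (adjusted p = 0.025), so the rise seen in 4T1 had the opposite sign there. Ndufc1, the complex I subunit, passed as lower in RENCA and did not pass in B16F10. The part of the block in its fall in 4T1 was not tested.

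The 5 4T1 tumours of the muDX400 arm were taken on the same day as the isotype tumours and are set beside the same baseline libraries as levels without a test. Adipoq was at 8.09 to 29.9 FPKM, Ngp at 1.91 to 11.5 FPKM, Cd8a at 2.41 to 4.15 FPKM and Pdcd1 at 2.04 to 4.29 FPKM. Cenpe ranged from 3.62 to 14.2 FPKM and Krt14 from 8.61 to 35.8 FPKM. Lcn2 was at 229 to 347 FPKM. Because these tumours share the baseline libraries with the isotype tumours, their levels do not test that comparison again.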

How the data were processed

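RNA from whole 4T1 tumours was measured with ribosomal-depleted stranded total RNA libraries and 50 base paired-end reads on a HiSeq 4000, per the labels. The authors deposited FPKM values for 54232 gene identifiers, and the aligner and genome build they used were not given in the sources used here. Lengths and biotypes came from GENCODE M21, which holds 54165 of the identifiers. Left out were 12856 pseudogenes and 13868 other genes with 1000 exonic bases or fewer. A gene was tested with FPKM of at least 1 in at least 3 of the libraries fitted. Tests used limma 3.58.1 in R 4.3.3 on log2(FPKM + 1) with an intensity trend, and Benjamini-Hochberg adjustment over all genes tested (threshold 0.05). Differences on this scale understate the change of low genes. Technical shares were tested by exact permutation (scipy 1.17.1). FPKM hold no fragment counts, so depth (18.6 to 23.4 M fragments) was estimated from the steps between low values and covers counting precision only roughly. The fit was also run on simulated libraries drawn independently with the spread of the isotype group. That leaves out the wider spread of the baseline tumours, so it does not test how the calls rest on single baseline tumours.

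The named genes are a fixed set of 21, the 12 largest rises and 12 largest falls among protein-coding genes past the threshold without overlap, up to 4 passing members per list, and the 8 largest contrasts each way against the 4 other models. Other genes are named as list members or were chosen after their values were seen. The members and the 38 lists were chosen with earlier results of these data known, and list counts carry no test of the list. Same-numbered libraries of the groups did not deviate together (correlations 0.092, -0.279 and -0.272), so the numbers were not taken as pairs.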

Additional observations from a re-analysis of the deposited data

Results flagged for a closer look

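Among 102 groups of isotype values checked, 11 had a library far from the rest of its group, where chance alone flags about 1 in 20. The groups are genes of the same isotype libraries, so the flags are not independent and an excess was not tested. Isotype replicate 5 was low for the neutrophil lectin Clec4d (3.69 FPKM, others 7.21 to 8.12), the chemokine Cxcl3 (2.81, others 5.47 to 6.92), the nitric oxide synthase Nos2 (5.30, others 13.0 to 17.2), Gm6410 (1.47, others 4.70 to 6.87) and Gm42546 (4.59, others 14.1 to 18.7). Isotype replicate 1 was low for smooth muscle actin Acta2 (43.6, others 65.3 to 71.8), the collagen chain Col6a3 (32.45, others 42.8 to 46.9) and Zfp934 (5.225, others 7.10 to 7.64). Replicate 2 was low for Cidec (9.43, others 15.1 to 17.8). Replicate 3 was high for Ciita (16.8, others 11.9 to 13.1), and replicate 4 for the lymphatic marker Lyve1 (4.15, others 2.02 to 2.19).

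The difference between groups was larger or smaller in 4T1 than the mean of CT26, MBT2, MB49 and CM3 for 16 named genes, tested as an interaction in limma. On the log2 scale 4T1 moved further up for Hp by 3.762, Cidec by 3.698, Scd1 by 3.13, Gpd1 by 2.875, Ngp by 2.732, Serpina3n by 2.67, Lpl by 2.637 and Plin4 by 2.595. The contrast was below 0 for Fcrls (-1.875), 4933427I04Rik (-1.741), Gm6410 (-1.686), Cd209c (-1.629), Gm42546 (-1.578), 0610009E02Rik (-1.555), Gm28874 (-1.392) and E030030I06Rik (-1.358).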

How the results depend on the processing

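Across the alternatives, named genes kept direction and side of the threshold in 1950 of the fits of isotype against baseline, lost the call in 258, gained it in 2 and turned in 1, which was mt-Cytb at 0.02201 under quantile normalisation. In the contrast with the other models they kept it in 312 and lost it in 73. The 1556 genes past the threshold became 890 with the spread shared over all models, 242 with a replicate block and 2835 with isotype and muDX400 tumours together, and ranged from 359 to 4532 with single libraries left out. The 207 genes of the contrast became 88 with a pseudocount of 0.1, 412 with no expression filter, 130 for protein-coding genes over 2000 bases, 122 after rescaling and 28 with a replicate block. They became 1118, 2203, 79 and 28 against CT26, MBT2, MB49 and CM3 alone, and 59 to 474 with single 4T1 libraries left out. The causes were not tested, beyond the fewer libraries or genes that an alternative itself brings. Replicate numbers did not pair the libraries, so the block spends degrees of freedom on a shared number. The alternative with principal transcripts over 1000 bases (1190 genes) was chosen after seeing the data. Few baseline libraries and an unknown baseline day limit every comparison here.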

Other observations

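Noncoding genes that passed were more often lower than higher in isotype tumours, and most did not pass. Of 167 long intergenic RNAs tested 2 were higher and 35 lower (median log2 difference -0.27), of 116 processed transcripts 1 and 29 (median -0.25), and of 111 antisense genes 3 and 19 (median -0.20). Of 81 genes still to be experimentally verified (the TEC class) 1 was higher and 11 lower, with a median of -0.04. Protein-coding genes had 521 higher and 929 lower of 11784, with a median of -0.01. Fragments of antisense genes and their partners can be told apart only if the counting used strand, which is not stated.

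Genes set aside from the comparison leaned further down when they were kept in the fit. Short genes had 29 higher and 161 lower of 441 (median -0.40), and pseudogenes 30 and 184 of 431 (median -0.45). Among lists not described above, 1 of 5 tested nerve and Schwann cell genes rose, the myelin gene Mbp (0.39), and 0 of 6 osteoclast genes and the single tested erythroid gene, Alas2 (0.01), passed. Immediate early genes had 3 of 16 higher, Btg2 (0.70), Fos (0.60) and Klf4 (0.47), where 4.29% of all genes tested were higher. The fast myosin Myh4 of skeletal muscle differed by 1.59 (adjusted p = 0.22 in limma).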
